A study of Mus musculus with 10 samples.

Results

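Nanog and 6 genes around it on mouse chromosome 6 (Dppa3, Gdf3, Slc2a3, Apobec1, Foxj2 and Phc1) were examined for peaks of HA-tagged SETα and SETβ, out of 19235 protein-coding genes analysed. Peaks were assigned to a gene when they overlapped its body or the 5 kb on either side, here called its window. The genes were chosen by their place in a segment of chromosome 6, from 118 to 136 Mb, that was selected on its number of peaks after SETα overexpression. Their SETα overexpression values are therefore given as a description, without a test. The 7 windows together covered 225.524 kb, since those of Apobec1 and Gdf3 overlap.

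The cells were KH2 mouse embryonic stem cells, in which a transgene from the pBS31 vector is switched on by doxycycline, and the study asked where each protein isoform of SET sits on chromatin. HA-SETα or HA-SETβ (SETa and SETb in the labels) was expressed in SET knockout cells (addback in the labels) or on top of endogenous SET (overexpression). All 4 groups received 1 µg/ml doxycycline for 24 h, and chromatin crosslinked with DSG before formaldehyde was pulled down with an antibody to HA. Of 10 samples, 8 libraries, 2 per group, had peak lists analysed here. Every group has a separate cell line, so line and group cannot be told apart. The other 2 samples, SET knockout cells that received no doxycycline, were not analysed here, and no value from cells without the tagged protein stands beside these counts. The labels do not say whether replicates came from separate cultures, so spreads and p-values measure only the variation between these libraries.

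SET is a histone chaperone that binds histone tails, masks them from acetyltransferases and inhibits the phosphatase PP2A. Nanog is a homeodomain transcription factor of the pluripotency network in embryonic stem cells. Its neighbours include Dppa3 (Stella), a maternal factor that guards DNA methylation in the early embryo, and Gdf3, a TGF-beta family ligand. Slc2a3 encodes the glucose transporter GLUT3, Apobec1 a cytidine deaminase that edits apolipoprotein B mRNA, Foxj2 a forkhead transcription factor, and Phc1 a subunit of the Polycomb complex PRC1. Several of these genes are active in embryonic stem cells and have long been described as a cluster around Nanog.

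RefSeq promoter sequences (GRCm38.p6) were found for 4 of the 7 genes, namely Phc1, Apobec1, Nanog, with 2 annotated starts, and Foxj2. The Nanog and Foxj2 promoters are shown because peaks fell differently on them, and the Phc1 promoter because it lies beside a peak of the SETα addback IDR list. Each run gives the 250 bases before the start, 5′ to 3′ on the gene's strand. Capitals mark matches to motifs, a SOX-POU composite (TTTGCAT, any base, then ACAATG) in Nanog and GC boxes (GGGCGG or its reverse complement) in Foxj2.
Nanog chr6:122707239-122707488, plus strand: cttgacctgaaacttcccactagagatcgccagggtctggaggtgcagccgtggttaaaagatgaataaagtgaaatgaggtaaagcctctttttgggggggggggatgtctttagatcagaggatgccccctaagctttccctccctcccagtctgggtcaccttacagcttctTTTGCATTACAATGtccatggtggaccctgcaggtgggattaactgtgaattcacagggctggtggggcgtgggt
Foxj2 chr6:122819934-122820183, plus strand: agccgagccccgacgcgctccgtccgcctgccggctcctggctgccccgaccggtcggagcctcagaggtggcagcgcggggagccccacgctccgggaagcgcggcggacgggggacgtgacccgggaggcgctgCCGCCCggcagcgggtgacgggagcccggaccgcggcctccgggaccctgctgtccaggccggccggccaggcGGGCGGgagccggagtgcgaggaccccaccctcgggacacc
Phc1 chr6:122340228-122340477, minus strand: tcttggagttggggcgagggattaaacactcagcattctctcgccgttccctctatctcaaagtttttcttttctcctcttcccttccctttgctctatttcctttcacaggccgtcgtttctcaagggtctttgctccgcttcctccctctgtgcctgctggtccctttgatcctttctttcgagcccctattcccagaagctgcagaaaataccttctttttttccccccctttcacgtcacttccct
Foxj2 had a GC content of 80.4% and 36 CpG, against 52% and 3 in Nanog, 49.6% and 8 in Phc1 and 48% and 7 in Apobec1. The medians over 29120 promoters were 52% and 5. The composite, searched on both strands, had matches in 2 of 29120 promoters (0.00687%), which were the overlapping windows of the 2 Nanog starts. Its spelling was chosen with the Nanog sequence known, so the rarity describes the motif and is no finding. It begins at −75 from the Nanog start at 122707489. GC boxes were present in 32.3% of promoters, CCAAT boxes (CCAAT) in 33.8% and TATA boxes (TATAAA) in 12.5%, on either strand. Apart from the composite, the 4 genes held GC boxes in Foxj2 at −41 and −114 and a TATA box on the opposite strand of Apobec1 at −212.

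SETα overexpression placed peaks all along the locus. The 7 windows held 97 and 158 peaks in the 2 SETα overexpression libraries, 42 and 46 after SETα addback, 5 and 10 after SETβ addback, and 0 and 2 after SETβ overexpression. The group means were 127.5 ± 43.1, 44 ± 2.83, 7.5 ± 3.54 and 1 ± 1.41 peaks (SD, n = 2 each). In the rest of the segment the SETβ groups overlapped in density, while both SETα groups stood apart from each other and from SETβ. Counts of the 4 groups in the windows did not overlap. They did for the stronger peaks, since those with a −log10 q of at least 1.3, a q of 0.05, numbered 8 and 54 with SETα overexpression, 20 and 22 with SETα addback, 0 and 2 with SETβ addback and 0 and 0 with SETβ overexpression. The libraries also differed in the length of their lists, which held 4807 and 7675 peaks for SETα overexpression, 1343 and 2869 for SETβ overexpression, 22176 and 15701 for SETα addback and 2518 and 9768 for SETβ addback. Read totals are not in the peak lists, so depth is unknown and its part in the counts was not tested.

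**Figure D1:**
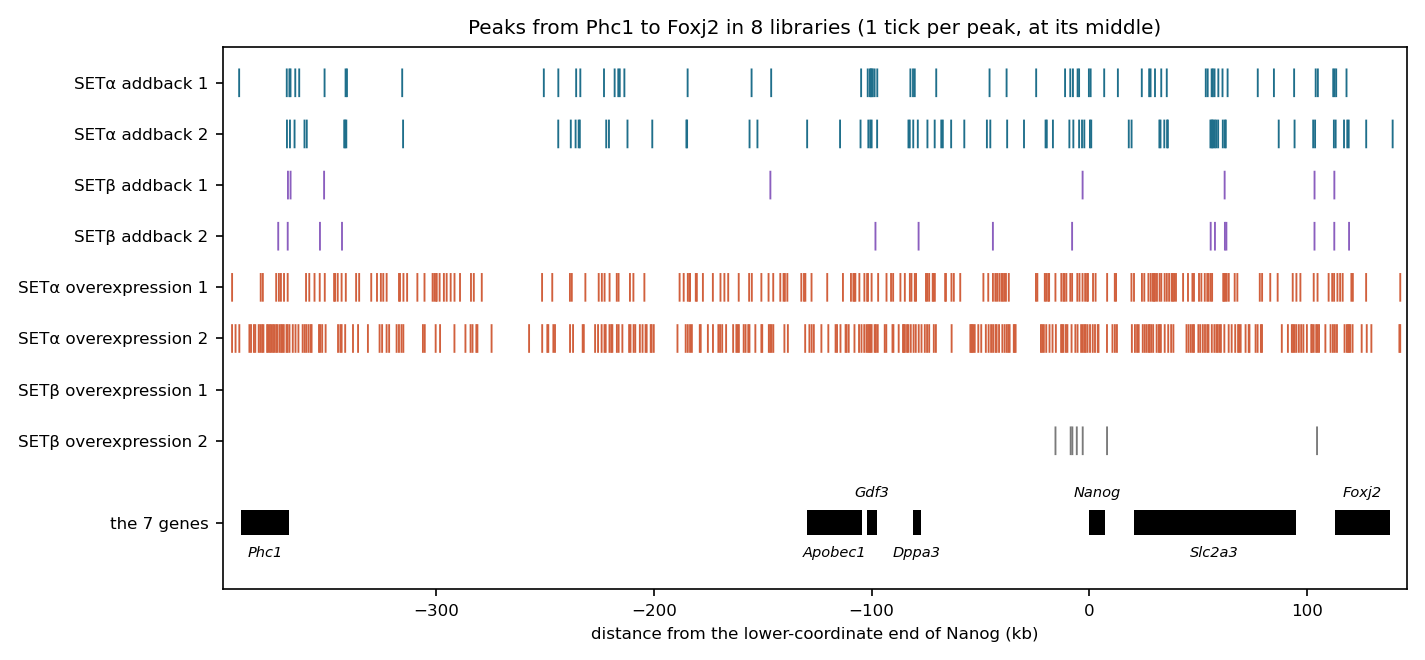
Peaks from Phc1 to Foxj2 in each library, 1 tick per peak, against the distance in kb from the lower-coordinate end of Nanog, with the 7 genes below in black. The SETα overexpression rows hold 207 and 305 peaks, spread over the interval with gaps, while SETβ overexpression replicate 1 has none.

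Between the outer windows, from Phc1 to Foxj2, lie 537.636 kb of chromosome. This interval held 207 and 305 SETα overexpression peaks, of which 110 and 147 fell outside the 7 windows. SETα addback left 69 and 81 peaks there, SETβ addback 8 and 15, and SETβ overexpression 0 and 7. Other coding genes between Phc1 and Apobec1 were covered as well. Rimklb, which encodes a ligase that joins glutamate to N-acetylaspartate, had 11 and 20 SETα overexpression peaks and 8 and 7 SETα addback peaks. Mfap5, for a microfibril protein, had 8 and 8 SETα overexpression peaks and 1 and 2 SETα addback peaks. Neither Rimklb nor Mfap5 had a peak in the lists filtered by irreproducible discovery rate (IDR), which compares the ranks of peaks between replicates.

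Set against the rest of the segment, the windows were richer in SETα peaks in both cell backgrounds. SETα overexpression gave 4.30 and 7.01 peaks per 10 kb of window and 1.82 and 2.60 per 10 kb elsewhere in the segment. SETα addback gave 1.86 and 2.04 against 0.29 and 0.31. The ratio of these densities was 2.36 and 2.70 with SETα overexpression and 6.42 and 6.66 with SETα addback. It was 5.47 and 4.28 with SETβ addback, from 5 and 10 peaks, and 0 and 1.28 with SETβ overexpression, from 0 and 2. Peaks covered 18.2% and 35.4% of the window bases with SETα overexpression against 7.15% and 10.9% elsewhere in the segment. With SETα addback the shares were 7.01% and 7.97% against 1.16% and 1.33%.

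All 7 genes had a peak in both SETα overexpression libraries and in both SETα addback libraries. Of the 250 other coding genes of the segment, 88.8% and 96.4% had a peak with SETα overexpression, so the 7 of 7 stood close to that background. Only 1.61% and 4.83% of the 869 coding genes elsewhere on chromosome 6 had one, and 1.65% and 4.31% of 18109 on the other chromosomes. For SETα addback the shares were 54.4% and 54% in the segment, 48.6% and 42.1% on the rest of chromosome 6, and 51.1% and 45.4% on other chromosomes. SETβ addback had a peak at 4 and 5 of the 7 genes, against 22.8% and 36.4% of segment genes and 8.52% and 22.3% elsewhere on chromosome 6. SETβ overexpression had one at 0 and 1 of the 7, the latter Nanog, against 6.8% and 18.4% of segment genes and 1.96% and 4.72% elsewhere on the chromosome. The IDR lists were sparser. SETα overexpression had an IDR peak in 2 of the 7 windows, the overlapping ones of Apobec1 and Gdf3, against 7.6% of segment genes, 0.23% elsewhere on chromosome 6 and 0.0718% on other chromosomes. SETα addback had one in the Phc1 window, against 13.2%, 4.26% and 3.46%. SETβ addback and SETβ overexpression had none in the 7, against 5.2%, 3.57% and 3.47% and against 0.8%, 0.23% and 0.0718%.

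**Figure D2:**
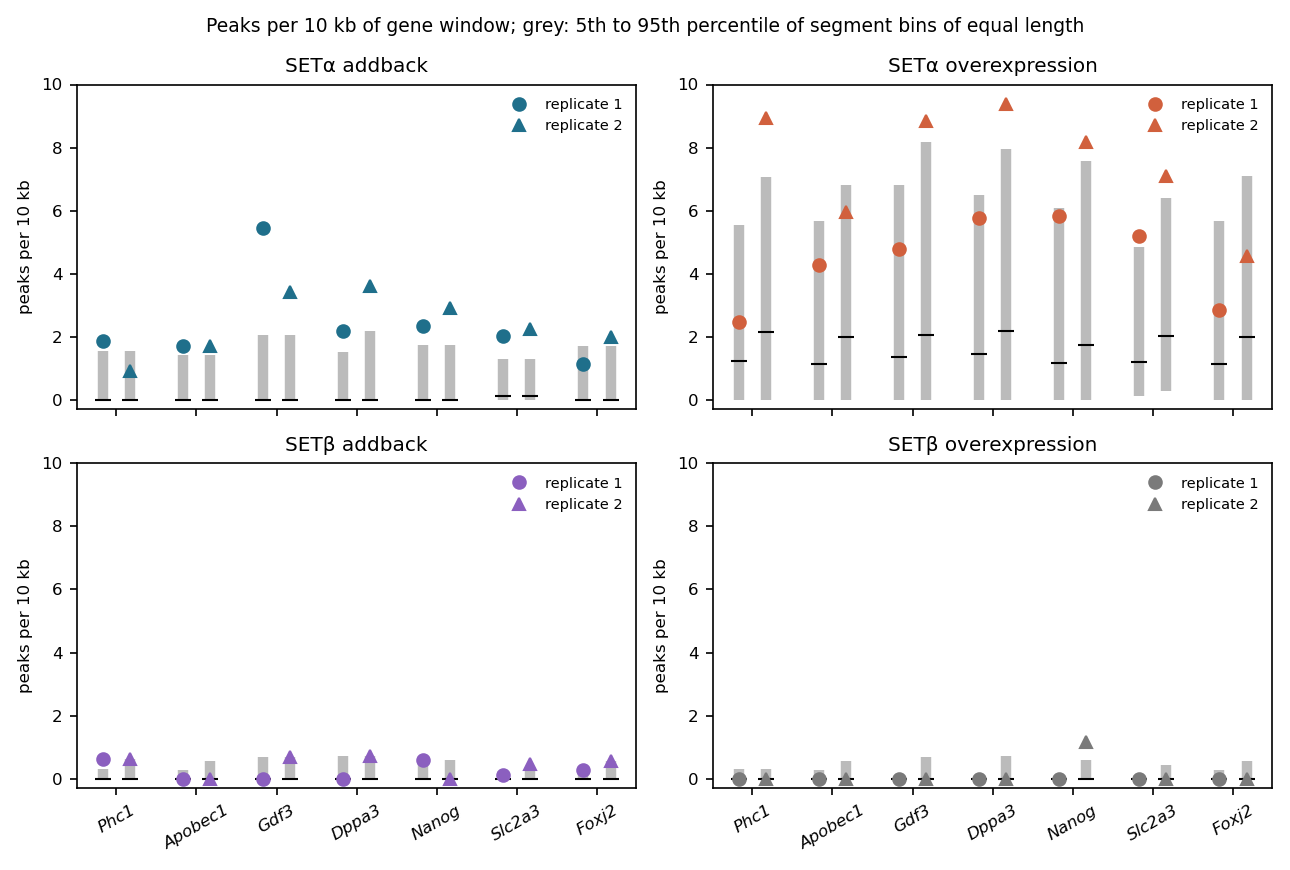
Peaks per 10 kb of window for each of the 7 genes, in 4 panels by group, with circles for replicate 1, triangles for replicate 2, grey bars from the 5th to the 95th percentile of segment bins of the same length and black dashes at their medians. Nanog stands at 5.83 and 8.17 peaks per 10 kb with SETα overexpression and at 2.33 and 2.92 with SETα addback.

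Nanog carried 10 and 14 SETα overexpression peaks, 4 and 5 SETα addback peaks, 1 and 0 with SETβ addback and 0 and 2 with SETβ overexpression. Both SETα overexpression counts lay above both SETα addback counts, and SETβ counts lay below them. Densities in the rest of the segment, which was selected on its SETα overexpression peaks, had the same order. Among 1032 segment bins as long as the Nanog window, 76.1% and 86.6% had at least 1 SETα overexpression peak, and 6.98% and 4.36% had as many as Nanog. SETβ addback had a peak in 5.91% and 12.9% of these bins and SETβ overexpression in 3.49% and 6.3%. For SETα addback, 24.1% and 23% of bins had a peak and 3.88% and 2.13% had as many as Nanog. The window was thus among the fuller bins of the segment in each of these 4 libraries, although 26 and 8 of the 250 other segment genes were at least as dense as Nanog with SETα overexpression. Peaks covered 23.6% and 45.1% of the Nanog window in the SETα overexpression libraries. Nanog has pseudogene copies elsewhere in the mouse genome, as has Dppa3, and how the authors treated reads that match several places is not given in the sources used here, so the assignment of reads to these 2 genes is uncertain.

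The highest-ranked SETα overexpression peaks of the whole set of windows were at Nanog in both libraries. Ranks follow the authors' −log10 p and then their fold enrichment, a linear ratio over local background. These are the authors' values, used here only within 1 library. In replicate 1 the leading peak, chr6:122703696-122705070, was 1375 bp long with fold 4.02, −log10 p 8.51 and rank 71 of 4807. Its summit lay 3363 bp before the gene. In replicate 2 the leading peak, chr6:122706200-122707127, was 928 bp long with fold 4.50, −log10 p 10.6 and rank 70 of 7675, and its summit lay 510 bp before the gene. Replicate 2 also had a 941-bp peak at chr6:122704055-122704995 (fold 4.18, rank 201) that overlapped the leading peak of replicate 1. Inside the gene it had chr6:122708788-122709332 with fold 4.09 and rank 85. The leading peak thus differed between replicates, and both lay upstream of Nanog.

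Neither SETα overexpression library had a peak on the Nanog promoter bases. Over the 326 bp before the 2 starts, which hold the composite shown above, the nearest SETα overexpression peaks ended 216 and 111 bp before and began 1485 and 136 bp after. The gap between flanking peaks was 2027 bp in replicate 1 and 573 bp in replicate 2. SETα addback replicate 1 did have a peak over these bases, chr6:122707030-122707569 (540 bp, fold 2.57, rank 7374 of 22176). SETα addback replicate 2 had none, its nearest peak starting 100 bp after them. Across other segment genes with a promoter entry, 24.8% and 37.1% of 202 had a SETα overexpression peak on the 250 bases and 29.7% and 30.7% a SETα addback peak, so a promoter without a peak was common.

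**Figure D3:**
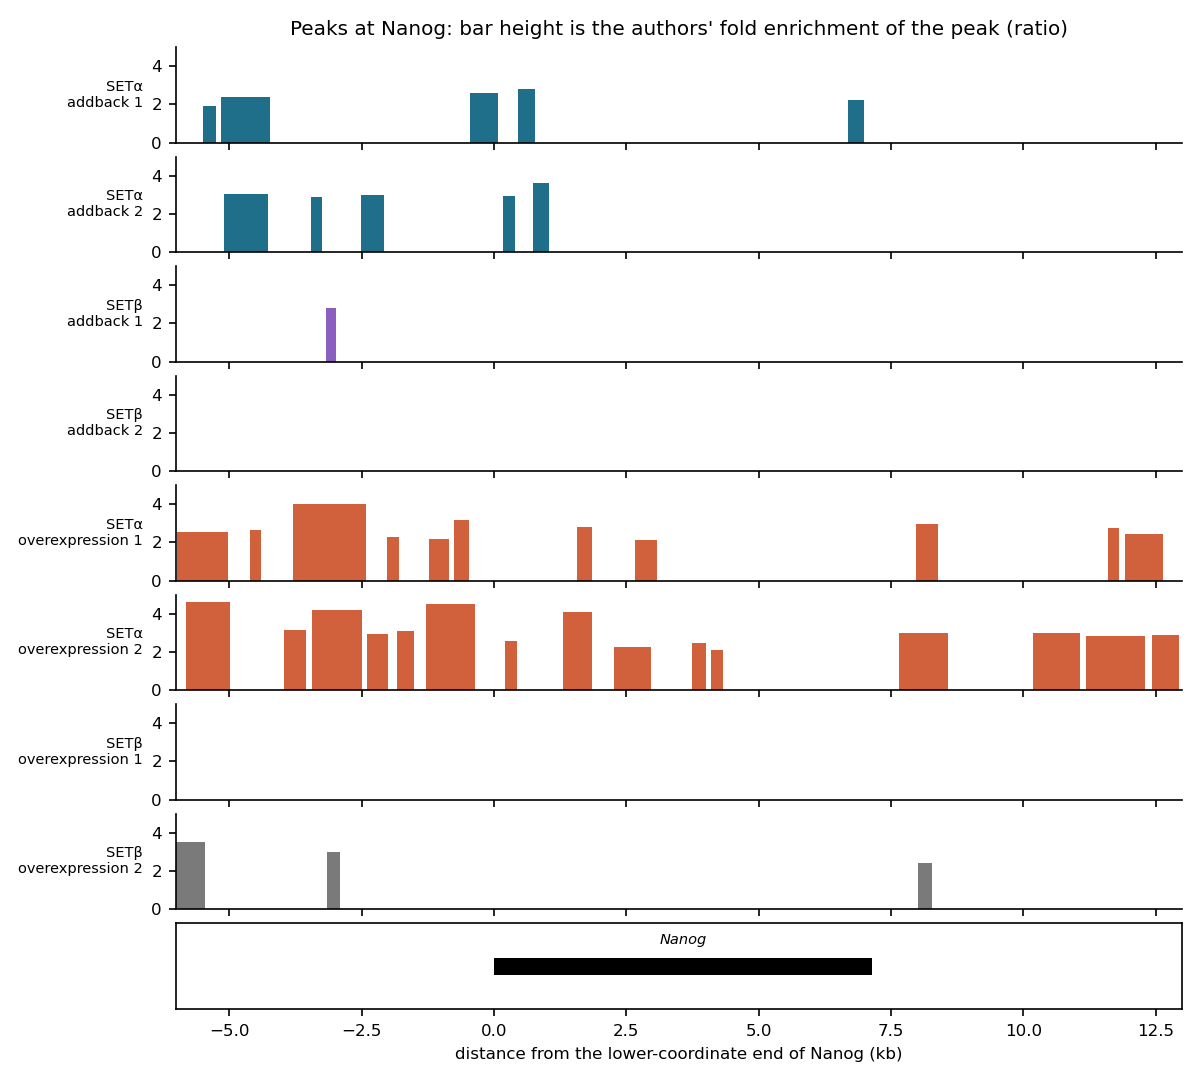
Peaks at Nanog in the 8 libraries, drawn to scale against the distance in kb from the lower-coordinate end of the gene, with the authors' fold enrichment (a ratio) as bar height and the gene body in black. SETα overexpression peaks reach fold 4.02 and 4.62 and leave the promoter at 0 kb uncovered, where SETα addback replicate 1 has a peak of fold 2.57.

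SETα addback also left peaks on both sides of the Nanog start. SETα addback replicate 1 had peaks at chr6:122702326-122703264 (939 bp, fold 2.39, rank 14938), at the promoter as given above, at chr6:122707946-122708256 (311 bp, fold 2.80, rank 4489) and at chr6:122714178-122714472 (295 bp, fold 2.23, rank 19481). Replicate 2 had chr6:122702381-122703226 (846 bp, fold 3.05, rank 8671) and chr6:122708217-122708535 (319 bp, fold 3.62, rank 2102), both overlapping peaks of replicate 1. Its other 3 peaks were 213, 427 and 221 bp long with ranks 6043, 8761 and 5410. An upstream peak near 5 kb from the gene and a peak inside its 5′ part were thus seen in both SETα addback libraries.

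The SETβ peaks at Nanog fell upstream and past its end. SETβ addback replicate 1 had 1 peak, chr6:122704309-122704508 (200 bp, fold 2.79, rank 1207 of 2518). SETβ overexpression replicate 2 had chr6:122704342-122704577 (236 bp, fold 2.99, rank 878 of 2869) and, past the gene end, chr6:122715502-122715758 (257 bp, fold 2.41, rank 2183). The former overlaps the SETβ addback peak. The merged 269 bp, chr6:122704309-122704577, also held peaks of both SETα overexpression libraries and none of the SETα addback libraries. SETβ overexpression replicate 2 had 4 more peaks within 16 kb upstream of Nanog, outside the window, led by chr6:122701448-122702031 with fold 3.53 and rank 229. Of its 7 peaks between Phc1 and Foxj2, 6 were within 16 kb of Nanog, whereas replicate 1 had none in the whole interval, so this pattern has no replicate behind it.

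Dppa3 and Gdf3, the small genes between Apobec1 and Nanog, were also dense in peaks. Dppa3 had 8 and 13 SETα overexpression peaks, 3 and 5 with SETα addback, 0 and 1 with SETβ addback and 0 in both SETβ overexpression libraries. The SETα overexpression counts were above all others, as SETα overexpression densities were in the rest of the segment. Of the 1279 segment bins of the Dppa3 window length, 71.7% and 83.8% held a SETα overexpression peak, and 7.74% and 2.03% held as many as Dppa3. As many as Dppa3 had with SETα addback were held by 5.00% and 1.49% of them. In replicate 2 of SETα overexpression, peaks covered 56.0% of the Dppa3 window, the highest share of the 7 genes in that library. Its leading peaks lay apart, at chr6:122633684-122634218 (535 bp, fold 3.26, rank 406) beyond the gene in replicate 1 and at chr6:122627154-122628441 (1288 bp, fold 3.91, rank 212) within the gene in replicate 2. SETβ addback replicate 2 had chr6:122628880-122629316 (437 bp, fold 2.34, rank 6821 of 9768).

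Gdf3 had 7 and 13 SETα overexpression peaks and 8 and 5 SETα addback peaks, so here the groups overlapped. Its SETα addback density, 5.45 and 3.40 peaks per 10 kb, was the highest of the 7 genes in replicate 1, and 0.25% and 1.74% of 1206 segment bins held as many peaks. The corresponding shares with SETα overexpression were 12.2% and 3.15%. At the end of Gdf3 nearer to Apobec1, and overlapping the Gdf3 body, lay the single SETα overexpression peak of the 7 windows that passed IDR filtering, chr6:122604691-122605639 (949 bp, −log10 p 7.12, IDR 0.0391, rank 74 of 127). It joined peaks of rank 157 in replicate 1 and 372 in replicate 2, with folds 3.55 and 3.56, and its summit lay 92 bp from Gdf3. SETβ addback replicate 2 had 1 peak in Gdf3, chr6:122609172-122609408 (fold 2.77, rank 2783).

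Slc2a3, the longest of the 7 genes, collected the most peaks in the SETα libraries, and Apobec1 fewer. Slc2a3 had 44 and 60 SETα overexpression peaks, 17 and 19 with SETα addback, 1 and 4 with SETβ addback and 0 in both SETβ overexpression libraries. These counts did not overlap between groups. In segment bins of the same length the medians were 10 and 17 peaks with SETα overexpression and 1 and 1 with SETα addback. They were 0 in all SETβ libraries, so the separation of the SETα groups was shared with the segment. Per 10 kb the Slc2a3 counts came to 5.20 and 7.10 with SETα overexpression and 2.01 and 2.25 with SETα addback. At most 3.38% of 207 segment bins of the Slc2a3 window length held as many in any of these 4 libraries. The leading SETα overexpression peaks were chr6:122752445-122753157 (713 bp, fold 3.69, rank 150) and chr6:122765609-122766112 (504 bp, fold 4.02, rank 195), both inside the gene. The leading SETα addback peaks were chr6:122764546-122765444 (899 bp, fold 3.15, rank 2627) and chr6:122764724-122765546 (823 bp, fold 3.53, rank 2271), which overlap each other. A SETβ addback peak of replicate 2, chr6:122765064-122765302 (rank 2784), fell within both of them.

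The other SETβ addback peaks of Slc2a3 also lay within the gene. Replicate 1 had chr6:122769465-122769797 (fold 2.63, rank 1936), and replicate 2 had chr6:122763039-122763410 (fold 3.25, rank 1108), chr6:122769637-122769877 (rank 4632) and chr6:122770330-122770529 (rank 6801). The peaks chr6:122769465-122769797 and chr6:122769637-122769877 overlap each other. Apobec1 had 15 and 21 SETα overexpression peaks, 6 and 6 SETα addback peaks and none with SETβ. Peaks where the Apobec1 and Gdf3 windows overlap were counted for both genes. Only 8 and 14 of the SETα overexpression peaks and 1 and 3 of the SETα addback peaks touched the Apobec1 body. The share of segment bins with as many SETα overexpression peaks as Apobec1 was 11.6% and 10.8%, so its density was less unusual than that of Slc2a3. SETα overexpression replicate 2 and both SETα addback libraries had a peak on the RefSeq promoter of Apobec1, with ranks 500, 1787 and 3360. That start lies inside the gene as the gene table bounds it.

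At the outer genes, Phc1 and Foxj2, peaks of different groups met at the gene starts. Foxj2 had 10 and 16 SETα overexpression peaks, 4 and 7 with SETα addback, 1 and 2 with SETβ addback and 0 in both SETβ overexpression libraries. Its SETα overexpression density was the lowest of the 7 genes in replicate 2, at 4.55 per 10 kb, and 25.3% and 19.6% of segment bins held as many. The GC-rich promoter printed above was overlapped by peaks in 6 libraries, all 4 addback and both SETα overexpression. The SETα overexpression peaks there were chr6:122819458-122820332 (fold 2.69, rank 1543) and chr6:122819900-122820603 (704 bp, fold 4.48, rank 126). The SETα addback peaks had ranks 4007 and 2278 and the SETβ addback peaks, chr6:122819904-122820114 and chr6:122819844-122820117, ranks 2041 and 6105. A SETβ addback peak on the promoter was found for 8.91% and 12.4% of the other segment genes and 4.2% and 7.69% of all 23956 genes with an entry.

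Phc1 had 8 and 29 SETα overexpression peaks, the widest difference between replicates among the 7 genes, beside 6 and 3 with SETα addback, 2 and 2 with SETβ addback and 0 in both SETβ overexpression libraries. Peaks covered 7.38% of its window in SETα overexpression replicate 1 and 33.2% in replicate 2. In 3 of the 4 addback libraries the highest-ranked peak of all 7 windows was at Phc1, the exception being SETβ addback replicate 1, where it was the Nanog peak. With SETα addback they were chr6:122338341-122339603 (1263 bp, fold 3.86, rank 934 of 22176) in replicate 1 and chr6:122339897-122340983 (1087 bp, fold 4.89, rank 646 of 15701) in replicate 2, the latter over the promoter. SETβ addback replicate 2 had chr6:122339188-122339636 (449 bp, fold 4.05, rank 565 of 9768) and replicate 1 chr6:122339405-122339628 (224 bp, fold 2.71, rank 1529 of 2518). The region chr6:122338341-122339675, inside Phc1 close to its start, was in the SETα addback IDR list (1335 bp, −log10 p 9.26, IDR 0.0158, rank 457 of 530).

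Shared regions were counted by merging the peaks of the 6 libraries other than SETα overexpression, which gave 69 regions in the windows. Both SETα addback libraries had a peak in 19 of them and all 4 addback libraries in 2, the Phc1 region above and the Foxj2 start (chr6:122819339-122820371). At least 1 SETα overexpression library had a peak in 58 of the 69 regions and both in 32. Of the SETα addback peaks in the windows, 45.2% and 45.7% overlapped a peak of SETα overexpression replicate 1, and 81.0% and 82.6% one of replicate 2. In the rest of the segment the shares were 50.2% and 48.7%, and 67.2% and 71.0%. Outside the segment they were at most 1.93%. Only 1470 and 2898 SETα overexpression peaks lay there, and the segment was selected on its number of such peaks. Overlap also depends on coverage by SETα overexpression peaks, which was 18.2% and 35.4% of window bases against 7.15% and 10.9% elsewhere in the segment. The part of coverage in these shares was not tested.

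The SETα overexpression replicates overlapped at the locus unevenly, since replicate 2 had more peaks. Of the 97 window peaks of replicate 1, 78 overlapped a peak of replicate 2 (80.4%, Wilson 95% interval 71.4% to 87.1%). In the other direction 69 of 158 did (43.7%, 36.2% to 51.5%). For the rest of the segment the shares were 57.9% and 40.0%, and for the rest of the genome 47.7% and 23.7%. The difference from the rest of the segment did not hold under other rules. When at least 50% of both peaks had to be shared, the window shares were 32.0% and 20.3% against 27.8% and 19.5%. Among peaks with a −log10 q of at least 1.3 the order turned, with 4 of 8 and 5 of 54 window peaks (50% and 9.26%) against 72.9% and 13.6%. For SETα addback, 22 of 42 (52.4%) and 21 of 46 (45.7%) window peaks overlapped the other replicate, against 43.4% and 41.0% in the rest of the segment. Intervals cover counting error only, and neighbouring peaks are not independent.

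The highest peaks of the locus were below the highest of the rest of the segment, where many more peaks lay. The rest held 3240 and 4619 SETα overexpression peaks against 97 and 158 in the windows. With SETα addback it held 516 and 544 against 42 and 46. A larger set tends to have a higher maximum, so these maxima are not matched. Median fold in the windows was 2.69 and 2.84 with SETα overexpression and 2.56 and 2.79 with SETα addback, with highest folds of 4.02, 4.62, 3.86 and 4.89. The highest folds in the rest of the segment were 5.30 and 6.03 with SETα overexpression and 14.02 and 17.00 with SETα addback. Ranked by −log10 p, SETα overexpression peaks in the windows had medians at 43.2% and 35.2% of their lists against 50.8% and 46.2% in the rest of the segment. Ranked by fold alone the direction turned, with medians at 56.8% and 49.5% against 50.6% and 48.9%. Among the top 10% of the list by −log10 p were 12 of 97 (12.4%) and 31 of 158 (19.6%) SETα overexpression window peaks, against 7.56% and 10.3% in the rest of the segment. With SETα addback the order was reversed, at 7.14% and 6.52% of window peaks against 19.0% and 18.4%. For SETα addback the medians by −log10 p were 48.3% and 61.0%, against 46.3% and 55.7%. Ranked by fold alone, SETα addback window peaks fell to 84.9% and 89.2% of their lists, as did those of the rest of the segment, at 82.0% and 79.0%. Median widths in the windows were 356 and 368 bp with SETα overexpression and 313 and 284.5 bp with SETα addback.

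A region between Slc2a3 and Foxj2, outside both windows, held the highest-ranked addback peak of the interval in 3 of the 4 addback libraries, the exception being SETβ addback replicate 2, where the Phc1 peak of rank 565 was higher. It was in the SETα addback IDR list as chr6:122810536-122812185 (1650 bp, −log10 p 11.3, IDR 0.00289, rank 389 of 530), with its summit 8600 bp from Slc2a3 and 9221 bp from Foxj2. The SETβ addback IDR list held chr6:122810647-122811131 (485 bp, −log10 p 8.0, IDR 0.0150, rank 454 of 485) within it. The library peaks ranked 672 and 461 in the SETα and 500 and 607 in the SETβ addback libraries. SETα overexpression peaks there had ranks 704 and 705 in replicate 1 and 53, 65 and 68 in replicate 2, where no window peak ranked higher than 70. SETβ overexpression replicate 2 had chr6:122811956-122812155 at rank 789. Thus 7 of 8 libraries had a peak in this region, all but SETβ overexpression replicate 1, though not at a single position. The SETβ overexpression peak overlapped neither SETβ addback peak, and the SETα overexpression replicate 1 peaks reached only the ends of the region. The region was chosen here for its place in the IDR lists.

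The window limit of 5 kb decided single peaks. Just inside it were SETα overexpression replicate 2 peaks at chr6:122701676-122702495, 4994 bp from Nanog with fold 4.62 and rank 100, and at chr6:122807271-122807529, 4908 bp from Slc2a3 with fold 2.47 and rank 5533. Just outside were SETα overexpression replicate 1 peaks at chr6:122701507-122702455, 5034 bp from Nanog with fold 2.56 and rank 2493, and at chr6:122635476-122635687, 5205 bp from Dppa3 with fold 2.38 and rank 3793.

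For SETα the bin with Nanog held more peaks than either neighbouring bin, within a much wider segment. Among 72 bins of 250 kb through the 18-Mb segment, the bin with Nanog ranked 5 and 4 by number of SETα overexpression peaks, with 113 and 152 against medians of 31 and 49. It ranked 3 and 2 with SETα addback (33 and 43 peaks, medians 3.5 and 3). With SETβ addback it ranked 11 and 15 (2 and 4 peaks, fewer than both neighbouring bins, medians 0 and 1). With SETβ overexpression it ranked 15 and 7 (0 and 6 peaks, medians 0 and 0). The rank of 15 with 0 peaks was shared with every other bin without a peak. Over the 72 bins, the number of peaks in SETα overexpression replicates 1 and 2 had Spearman's rho of 0.95 between them, and of 0.75 and 0.72 with SETα addback replicate 1 and 0.83 and 0.79 with SETα addback replicate 2. These are descriptions over bins that share libraries, gene content and base composition.

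**Figure D4:**
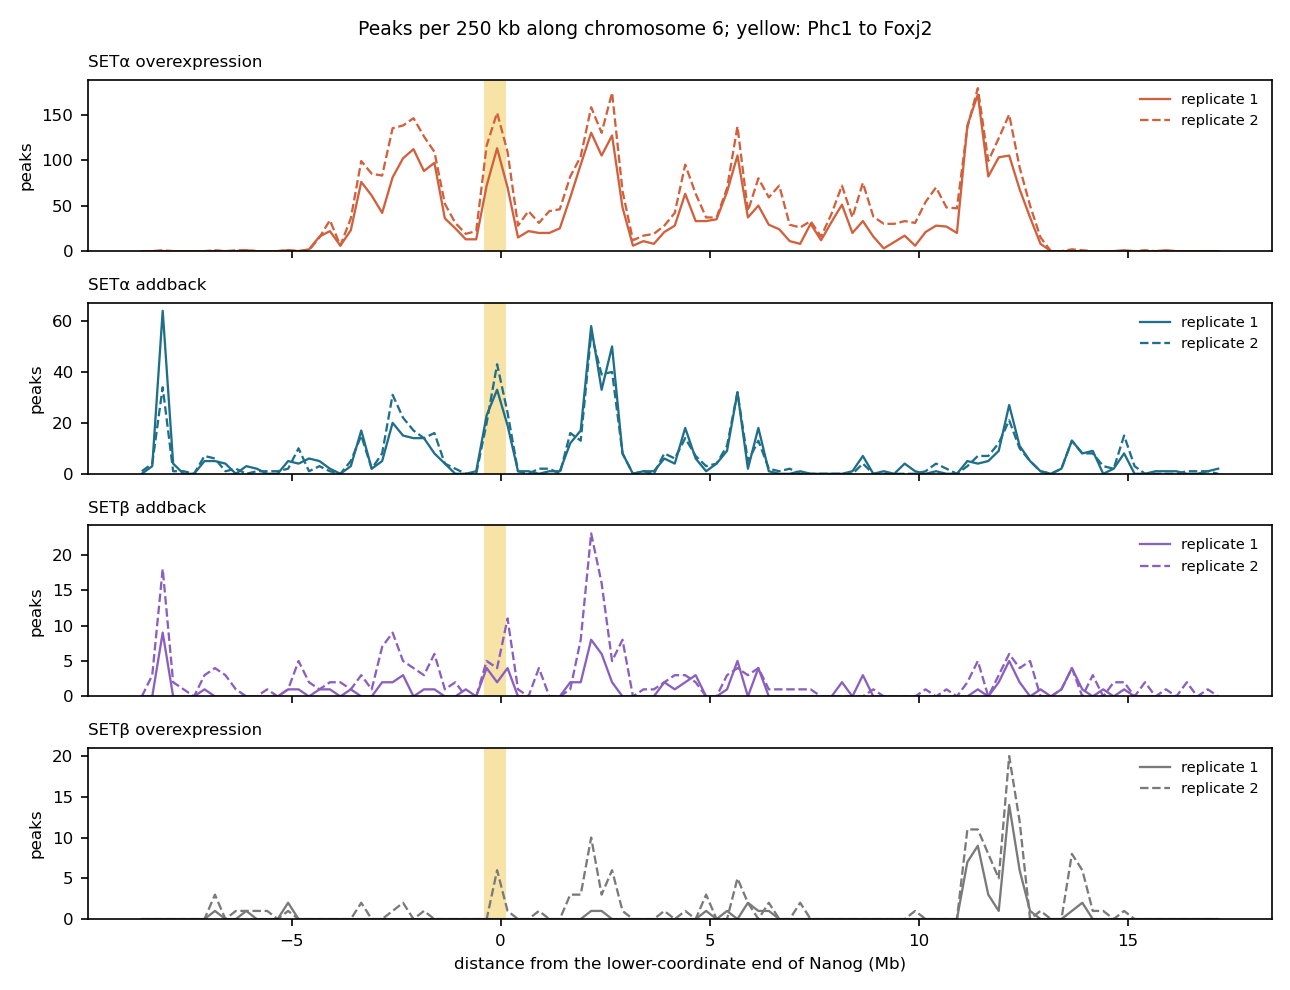
Peaks per 250 kb along chromosome 6 by group, with a solid line for replicate 1 and a dashed line for replicate 2, against the distance in Mb from Nanog, and the interval from Phc1 to Foxj2 in yellow. In the SETα overexpression libraries the bin with Nanog is a local peak of 113 and 152, below the segment's highest bins of 172 and 179, and counts fall to near 0 beyond the segment. SETα addback has 33 and 43 in the same bin.

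The coding genes most like Nanog in peaks per 10 kb over the 8 libraries (Euclidean distance) were Cdca3 (1.50), Gnb3 (1.61), Apold1 (1.64), Rhno1 (1.75) and Tnfrsf1a (1.81). All 5 lie in the same segment of chromosome 6, as do the nearest 50, which the selection of the segment fixed, since the distance includes the SETα overexpression peaks it was selected on. Cdca3, a regulator of mitotic entry, had 4.94 and 7.76 SETα overexpression peaks per 10 kb and 2.82 in both SETα addback libraries.

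Other pluripotency genes were taken from a list of 30, of which 27 lie on the chromosomes analysed. Of the 27, 0 had a peak in either SETα overexpression library, a count near the background of 1.65% and 4.31% of coding genes on other chromosomes. With SETα addback, 22 and 23 of the 27 had a peak (81.5% and 85.2%, against 51.1% and 45.4%). Pou5f1, the OCT4 gene, had 4 and 5 SETα addback peaks and 0 and 3 SETβ addback peaks, and Sox2 had 3 and 3 and then 1 and 1. SETβ addback had a peak at 3 and 17 of the 27 (11.1% and 63.0%, against 12.5% and 33.1%), and SETβ overexpression at 2 and 6 (7.41% and 22.2%, against 1.86% and 5.78%). The 2 in replicate 1 were Dppa5a and Lefty1, and replicate 2 had Lefty1, Lefty2, Nodal, Klf5, Tet1 and Tfcp2l1. No gene of the list had a peak in any IDR list, which is near the background of 3.46% and 3.47% of coding genes on other chromosomes for SETα and SETβ addback and 0.0718% for each overexpression list. With SETα addback, Nanog at 2.33 and 2.92 peaks per 10 kb was within the range of the list. In replicate 1 the genes Tbx3 (3.72), Fgf4 (3.61), Nodal (3.45), Mycn (3.18), Pou5f1 (2.71), Lefty2 (2.50) and Sox2 (2.41) were denser, and in replicate 2 Pou5f1 (3.39).

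Contrasts without SETα overexpression were tested on the number of peaks in the 7 windows. SETα addback had 36.5 more peaks than SETβ addback (exact two-sided permutation test, p = 0.333, n = 2 against 2), and the counts 42 and 46 did not overlap 5 and 10. SETβ overexpression had a difference of −6.5 peaks from SETβ addback (exact two-sided permutation test, p = 0.333), with 0 and 2 against 5 and 10. With 6 arrangements, 0.333 is the smallest p this design can give, so neither difference could pass 0.05. Scaled to the length of each list the isoforms overlapped, with 1.89 and 2.93 window peaks per 1000 library peaks for SETα addback and 1.99 and 1.02 for SETβ addback, a difference of 0.907 (exact two-sided permutation test, p = 0.667). SETβ overexpression had 0 and 0.697 per 1000, and SETα overexpression 20.2 and 20.6.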

How the data were processed

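HA ChIP-seq peak lists of 8 libraries and 4 IDR lists were analysed. The authors called peaks per library, and the submitters' processing notes name Bowtie2, MACS2 and deepTools and the build GRCm38 (mm10). Settings, control libraries and excluded regions are not given in the sources used here. In the library lists, the score deposited by the authors is 10 times −log10 p cut to a whole number. The fold deposited by the authors is a linear ratio of peak signal to local background, and the deposited −log10 p and −log10 q come from their peak caller. The authors' IDR lists hold a scaled IDR score and −log10 p for pairs of replicates.

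Positions are as in the files, counted from 1, and genes come from a RefSeq table of GRCm38.p6. Chromosomes 8 and 11 were not analysed here, which left 19 chromosomes, and 3 mitochondrial peaks were left out. A peak was counted at a gene if it shared at least 1 bp with the window. Matched bins of each window's length were laid through the segment, leaving out bins that touch a window. Groups of 2 libraries were compared by exact permutation. Python 3.11.15, pandas 2.3.3, NumPy 2.4.6, SciPy 1.17.1 and matplotlib 3.10.9 were used, and the counting code was tested on simulated data. Shares have Wilson intervals. The labels tie replicate numbers to no shared batch, so libraries were not treated as pairs.

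The genes and lists were chosen with earlier results of these data known. The rule named all 7 genes, coding genes between them with an addback or IDR peak, the 5 genes nearest Nanog in density, and a pluripotency list. Of these, 1 result is not reported here. The rule also asked for all addback peaks. Of the SETα addback peaks outside Nanog, only the highest-ranked and those on promoters or in IDR regions are printed. Alternatives were other windows, q thresholds, overlap rules, rank by fold, scaling to list length, a replicate block and leaving out each replicate.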

Additional observations from a re-analysis of the deposited data

Results flagged for a closer look

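The number of peaks in the 7 windows moved in opposite directions for the isoforms between SET knockout cells and cells with endogenous SET. The mean rose from 44 to 127.5 for SETα, a change of 83.5, while the change for SETβ was −6.5, from 7.5 to 1. The changes differ by 90 peaks. Both SETα overexpression libraries (97 and 158) lay above both SETα addback libraries (42 and 46), and both SETβ overexpression libraries (0 and 2) lay below both SETβ addback libraries (5 and 10). The rest of the segment had the same directions of change in its group means. There, peaks per 10 kb were 0.290 and 0.306 with SETα addback and 1.82 and 2.60 with SETα overexpression, against 1.86 and 2.04, and 4.30 and 7.01, in the windows. For SETβ they were 0.0405 and 0.104 with addback and 0.0276 and 0.0692 with overexpression, where the groups overlapped. Among peaks with a −log10 q of at least 1.3 the groups overlapped for both isoforms, at 8 and 54 (overexpression) against 20 and 22 (addback) for SETα and 0 and 0 against 0 and 2 for SETβ. At 5 on that scale the SETα direction turned, with 0 and 2 against 1 and 3, and all SETβ libraries had 0. The difference between isoforms was not tested, because the genes were chosen for their place in the SETα overexpression segment. Each group is its own cell line, so line, isoform and SET background cannot be told apart.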

How the results depend on the processing

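The signs of the differences between SETα and SETβ addback and between SETβ overexpression and SETβ addback held under the alternative windows, the summit rule and a −log10 q of at least 1.3. At a q threshold of 5 on the same scale the SETβ libraries had no window peak and their difference was 0. No p under 0.05 was possible in any of these tests. Leaving out each replicate in turn gave 34 to 39 more peaks with SETα than SETβ addback, −9 to −4 for SETβ overexpression minus SETβ addback, and means of 97 to 158 for SETα overexpression. With a replicate block the differences stayed 36.5 and −6.5 (exact permutation, p = 0.5, 4 arrangements), and same-numbered libraries had correlations of deviations over genes of −0.043 and 0.14 in the 2 contrasts, too few pairs to settle a pairing. Of the mean of 127.5 SETα overexpression window peaks, 31 reached a −log10 q of 1.3 (8 and 54 by replicate) and 1 reached 5 (0 and 2, against 1 and 3 with SETα addback, which turns the direction). At 1.3 the SETα overexpression counts overlapped those of SETα addback, 20 and 22. At 1.3, the mean share of segment bins with as many peaks as a window moved from 9.95% to 23.2% (from 13.8% to 37.6% in replicate 1 and from 6.13% to 8.80% in replicate 2, so the 23.2% moves by over 1.5 times without either library), segment genes with a peak from 92.6% to 46.8%, and the overlap of replicates from 62.0% to 29.6%. Gene bodies alone gave 83.6% of segment genes. Requiring that peaks share at least 50% of both lengths gave an overlap of 26.1%, and ranking by fold moved the median rank of SETα overexpression window peaks from 39.2% to 53.1% of the list. The depth of the libraries is unknown, so a window without a peak does not show absence of the protein.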
